A study of Caenorhabditis elegans with 2 samples.

Results

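The genes described here encode the vacuolar-type proton pump and the vacuolar protein sorting machinery of Caenorhabditis elegans. Members were all protein-coding genes whose symbol begins with vha or vps in the Ensembl annotation of WBcel235, 51 of 19973 protein-coding genes on the nuclear chromosomes. They are 20 vha and 31 vps genes. The data are peaks from chromatin immunoprecipitation with sequencing of MES-2, taken from whole hermaphrodites at the L4 larval stage. The animals, strain OP248, expressed MES-2 from a transgene with GFP and FLAG at its C-terminus, and the pull-down used an anti-GFP antibody. The 2 samples are biological replicates of this 1 group, so the binding is described without a comparison of conditions. Separate cultures and the promoter of the transgene are not described in the sources used here, and the spread between replicates may be partly technical. A gene is called bound where a summit of the thresholded list, which the authors derived from the pair of replicates, lay within 500 bp of any of its protein-coding transcript starts. The word bound refers to that position alone. Signal is the authors' own height of a peak, whose scale is not stated, so heights are set side by side within 1 list at a time. No control sample was analysed here, the lists hold no read counts and the depth is unknown, and whole animals mix all tissues.

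The vacuolar ATPase acidifies lysosomes, endosomes and secretory compartments. Its cytosolic V1 sector hydrolyses ATP and turns a rotor, and its membrane-embedded V0 sector carries protons across. In worms the pump also works at the apical surface of the intestine, the excretory canal and the epidermis. Vacuolar protein sorting genes were named from yeast mutants that missort vacuolar enzymes. HOPS and CORVET tether endosomes and lysosomes before fusion, and ESCRT complexes bud ubiquitinated cargo into the endosome lumen. Retromer returns receptors from endosomes, GARP tethers such carriers at the Golgi, and EARP does so at recycling endosomes. MES-2 is the worm Enhancer of zeste, which methylates lysine in the tail of histone H3 as part of Polycomb repressive complex 2 and is known for its role in silencing in the germ line.

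The sequences under the highest summits are printed first, because the values below refer to these sites. The stretches belong to the 6 bound members of highest signal among those whose sequence may be printed. They were read from the RefSeq copy of WBcel235, the build of the ce11 coordinates. Each is given 5′ to 3′ on the strand of the member, covers up to 100 bases on either side of the summit, and was shortened where an annotated exon began. Capitals mark the letters GAGAGA on either strand, 1 of the 3 motifs searched.
The vps-24 stretch, 114 bases on the plus strand at chrII:4993884-4993997, ends at the base before the vps-24 start.
vps-24: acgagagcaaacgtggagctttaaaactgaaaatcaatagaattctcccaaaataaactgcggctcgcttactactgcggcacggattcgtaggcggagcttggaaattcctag
The vps-33.1 stretch lies on the plus strand at chrIII:8700646-8700846.
vps-33.1: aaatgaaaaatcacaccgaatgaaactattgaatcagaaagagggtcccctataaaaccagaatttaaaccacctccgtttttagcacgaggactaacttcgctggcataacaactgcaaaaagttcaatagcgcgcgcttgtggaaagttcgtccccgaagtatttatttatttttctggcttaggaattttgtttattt
The vha-1 stretch lies on the plus strand at chrIII:9780702-9780902.
vha-1: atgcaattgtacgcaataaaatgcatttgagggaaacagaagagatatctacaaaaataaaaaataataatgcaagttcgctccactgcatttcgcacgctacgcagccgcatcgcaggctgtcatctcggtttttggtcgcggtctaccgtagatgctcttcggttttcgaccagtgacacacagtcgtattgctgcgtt
The vha-12 stretch lies on the plus strand at chrX:4190651-4190851.
vha-12: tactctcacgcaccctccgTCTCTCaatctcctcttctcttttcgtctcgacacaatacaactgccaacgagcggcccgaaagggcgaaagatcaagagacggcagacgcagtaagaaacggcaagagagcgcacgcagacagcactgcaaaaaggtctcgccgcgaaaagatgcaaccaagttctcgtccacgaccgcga
The vps-60 stretch lies on the minus strand at chrV:8606389-8606589.
vps-60: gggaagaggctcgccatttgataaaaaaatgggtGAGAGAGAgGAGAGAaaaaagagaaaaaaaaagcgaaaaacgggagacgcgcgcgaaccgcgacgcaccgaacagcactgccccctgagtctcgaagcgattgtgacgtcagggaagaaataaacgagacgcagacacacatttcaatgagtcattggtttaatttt
The vha-8 stretch lies on the plus strand at chrIV:6790527-6790727.
vha-8: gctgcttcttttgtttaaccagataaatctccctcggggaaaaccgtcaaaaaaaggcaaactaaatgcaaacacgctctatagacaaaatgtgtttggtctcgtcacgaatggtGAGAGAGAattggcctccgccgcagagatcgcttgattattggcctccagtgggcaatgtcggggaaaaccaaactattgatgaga
GAGAGA was found in 3 of these 6 stretches, those of vha-12, vps-60 and vha-8, and CACGTG and GATAAG in none of them. In vps-60 and vha-8 matches overlap each other, which gives the longer run GAGAGAGA. The G and C content ran from 37.8% in the vps-33.1 stretch to 54.7% in the vha-12 stretch.

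Most of these genes were bound. A thresholded summit lay at 31 of the 51 members (60.8%, exact 95% interval 46.1 to 74.2%), against 16.5% of all protein-coding genes. Of the vha genes 13 of 20 were bound (65.0%, interval 40.8 to 84.6%), and of the vps genes 18 of 31 (58.1%, interval 39.1 to 75.5%). These Clopper-Pearson intervals cover counting error only, and no test was made on the chosen genes. In the thresholded list the bound members were near the middle in height. Their median signal was 219.5, against 206.4 over all 3305 bound genes. Their median percentile among those genes was 52.6, and it ran from 49.2 to 64.7 under the other settings given at the end. Signals of the bound members ran from 76.6 at vha-20 to 859 at vps-51. Of the 31, 10 lay in the highest 25% of all bound genes and 7 in the lowest 25%.

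**Figure D1:**
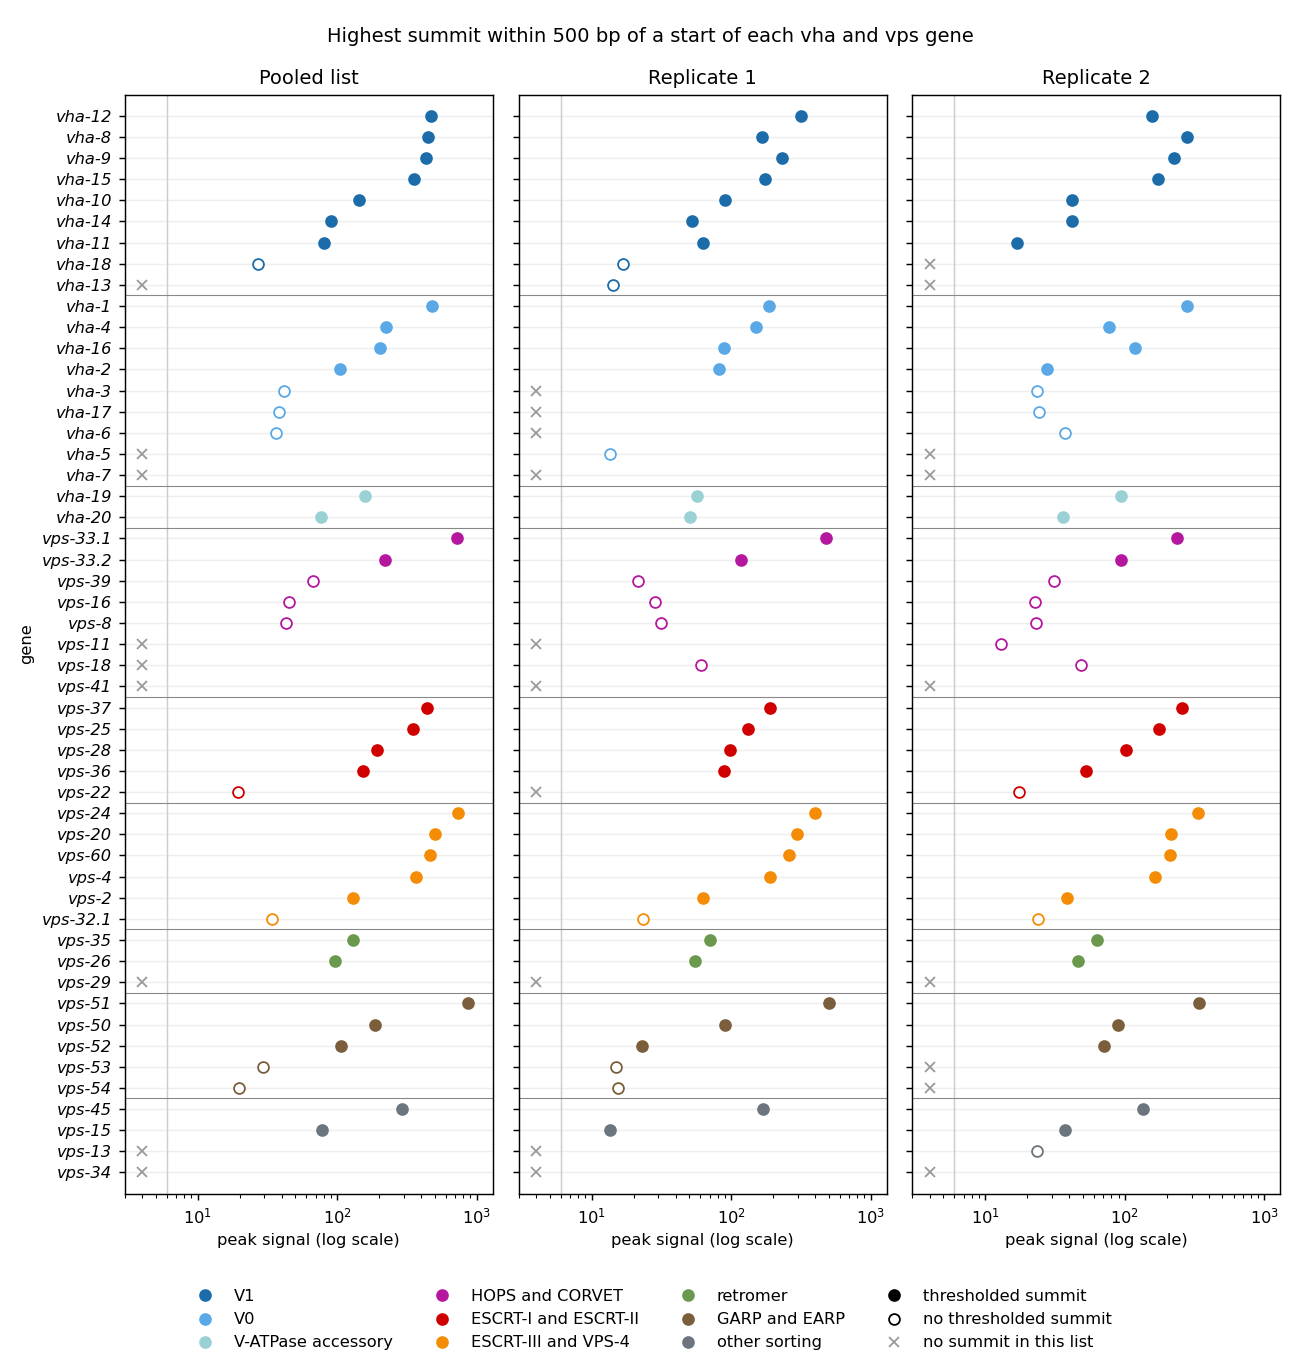
Peak signal (log scale) of the highest summit within 500 bp of a start for each of the 51 members, in the pooled list and in the list of each replicate, grouped by complex. Filled points have a thresholded summit, open points do not, and crosses mark a list with no summit there. The 31 filled points of the pooled list sit between 76.6 and 859, and all open points of that list at or below 66.4.

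In the V1 sector 7 of 9 genes were bound (77.8%, interval 39.99 to 97.2%), against 16.5% of all protein-coding genes. The bound V1 genes had a median signal of 354. The highest was vha-12, for subunit B of the ATP-hydrolysing hexamer, with a signal of 468 in the pooled list, 317 in replicate 1 and 155 in replicate 2. Its summit on chromosome X at 4190751 lay 343 bp upstream of the start. Subunit E of the peripheral stalk, vha-8, had 445 in the pooled list, 168 in replicate 1 and 279 in replicate 2. These members led the sector in opposite replicates, vha-12 ranking 334 in replicate 1 and 1008 in replicate 2, and vha-8 ranking 946 and 340. For vha-9, subunit F of the rotor shaft, the signals were 431 pooled, 232 in replicate 1 and 226 in replicate 2. For vha-15, a subunit H gene, they were 354 pooled, 176 in replicate 1 and 173 in replicate 2. Ranks in replicates 1 and 2 were close, 565 and 514 for vha-9 and 870 and 833 for vha-15.

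The remaining bound V1 genes were lower. The vha-10 summit, at subunit G of the peripheral stalk, had 143 pooled, 90.2 in replicate 1 and 41.4 in replicate 2, and lay in an intron of the upstream gene trpp-8. The vha-14 summit, at rotor subunit D, had 90.7 pooled, 52.5 in replicate 1 and 41.5 in replicate 2. The vha-11 summit, at subunit C, lay in an intron of vha-11 itself, 285 bp downstream of the start. It had 80.3 pooled, 63.4 in replicate 1 and 15.7 in replicate 2, where it ranked 17843, against rank 3072 in replicate 1. The 2 unbound V1 genes were vha-13, for catalytic subunit A, and vha-18, the other subunit H gene. At vha-13 the nearest thresholded summit lay 551 bp upstream, just outside the window, with a signal of 335 and rank 900. At vha-18 a pooled summit of 26.9 was present, and the nearest thresholded summit was 10067 bp away. The vha-15 and vha-18 proteins share 43.2% of aligned residues, and 1 gene was bound and the other was not.

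The V0 sector had 4 of 9 genes bound (44.4%, interval 13.7 to 78.8%), against 16.5% of all protein-coding genes. The highest in V0 was vha-1, a proteolipid c gene, with 476 pooled, 186 in replicate 1 and 280 in replicate 2. That summit lay 452 bp upstream of vha-1 and 448 bp from the start of sqv-3, which encodes an enzyme of glycosaminoglycan synthesis and runs the other way. The vha-4 summit, at the c″ proteolipid, had 222 pooled, 152 in replicate 1 and 77.0 in replicate 2, and lay 203 bp upstream of vha-4 but 97 bp from the start of T01H3.5. The vha-16 summit, at subunit d, had 201 pooled, 88.9 in replicate 1 and 118 in replicate 2, 173 bp upstream.

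Of the pair of genes with identical proteins, vha-2 was bound and vha-3 was not. Their translations, 161 residues each, were 100% identical, and each shared 62.7% of aligned residues with VHA-1. The vha-2 gene had 2 thresholded summits, 104 in the coding sequence 163 bp downstream of its start and 76.0 at 385 bp upstream. The higher one had 81.9 in replicate 1 and 25.3 in replicate 2, with ranks of 2388 and 9506. For vha-3 the highest nearby region was 41.5 in the pooled list, below the lowest thresholded signal of 73.5, with 23.5 in replicate 2 and no region in replicate 1. The nearest thresholded summit lay 1031 bp upstream of vha-3, with a signal of 147.

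None of the 3 subunit a genes among the members was bound, against 16.5% of all protein-coding genes. With only 3 genes, their share cannot be told apart from that one. Subunit a anchors the proton path, and its isoforms in worms are known for different tissues: vha-5 in the excretory canal and epidermis, vha-6 in the intestine, and vha-7 in the epidermis and uterus. At vha-6 the pooled list had a summit of 36.1 and replicate 2 one of 37.01, with none in replicate 1. At vha-5 a region of 13.5 in replicate 1 was the whole record, and vha-7 had no summit in any of the 4 lists. The nearest thresholded summits lay 14197 bp from vha-5, 1927 bp from vha-6 and 18577 bp from vha-7. Identity among the 3 proteins ran from 32.7 to 45.2%. The fourth subunit a gene, unc-32, known from neurons and outside the symbol rule and singled out after its value was seen, was bound with a signal of 139, 171 bp upstream. The fifth unbound V0 gene, vha-17 for the small subunit e, had a pooled summit of 38.1 and one of 24.1 in replicate 2.

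Both accessory genes were bound, against 16.5% of all protein-coding genes. One was above and one below the median thresholded signal of 139.9. At vha-19, the counterpart of mammalian ATP6AP1, the summit 318 bp upstream had 157 pooled, 56.8 in replicate 1 and 93.4 in replicate 2. At vha-20, the counterpart of the prorenin receptor ATP6AP2, the summit in its coding sequence had 76.6 pooled, 51.1 in replicate 1 and 35.9 in replicate 2, the lowest signal of all bound members.

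**Figure D2:**
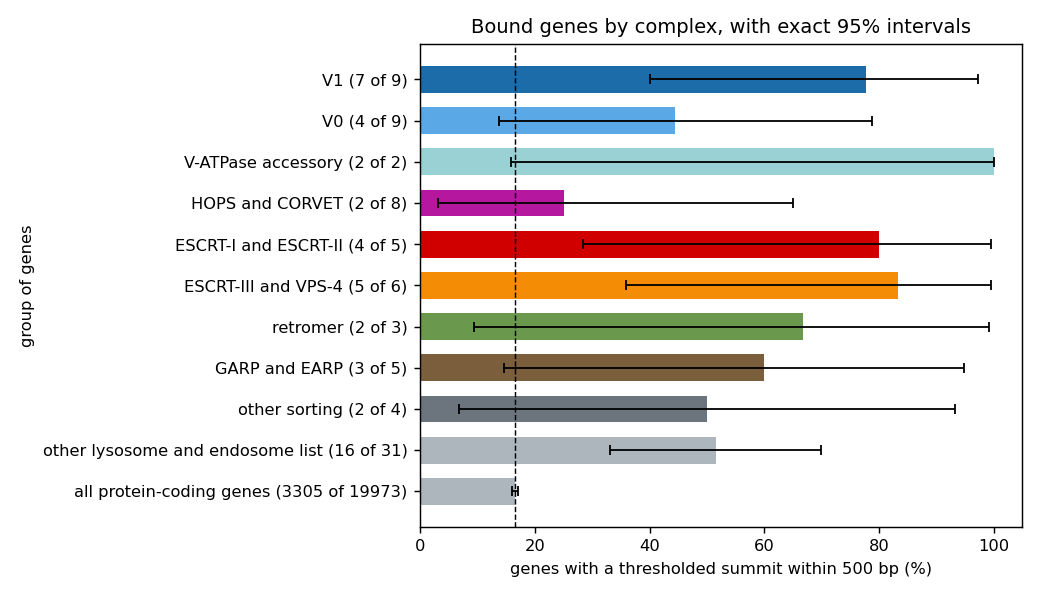
Share of genes with a thresholded summit within 500 bp of a start, in percent, for each complex, for the other lysosome and endosome genes and for all protein-coding genes; bars give the share, whiskers exact 95% intervals and the dashed line the share of all protein-coding genes. V1 and both ESCRT groups sit at 77.8 to 83.3%, HOPS and CORVET at 25%, and the whiskers of all small groups are wide.

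ESCRT genes were the most often bound of the sorting complexes with at least 5 genes, 9 of 11 in all (81.8%, interval 48.2 to 97.7%). The share of all protein-coding genes was 16.5%. In ESCRT-III, which forms the filaments that cut off vesicles, vps-24 had 729 pooled, 402 in replicate 1 and 333 in replicate 2. Its summit lay 14 bp upstream of the nearest vps-24 start and 404 bp from the start of eif-1, a translation initiation factor gene on the other strand. The vps-20 summit, 9 bp downstream of the start in the 5′ UTR, had 499.8 pooled, 295 in replicate 1 and 215 in replicate 2. The start of eif-4A3, for a core protein of the exon junction complex, was 468 bp from it. The vps-60 summit, 361 bp upstream with no other start in the window, had 463 pooled, 260 in replicate 1 and 209.5 in replicate 2. All 3 ranked 578 or better in both replicates.

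The gene of the AAA ATPase that takes the filaments apart, vps-4, had 364 pooled, 191 in replicate 1 and 165 in replicate 2. The vps-2 summit, at another filament subunit, had 131 pooled, 62.4 in replicate 1 and 38.7 in replicate 2 and was shared with tiar-2. The main filament subunit gene, vps-32.1, was unbound, with 33.99 pooled, 23.3 in replicate 1 and 23.7 in replicate 2. A thresholded summit of 507 lay 653 bp upstream of it. In ESCRT-I, vps-37 had 442 pooled, 189 in replicate 1 and 256 in replicate 2, and vps-28 had 191 pooled, 97.7 in replicate 1 and 102 in replicate 2. In ESCRT-II, vps-25 had 348 pooled, 126 in replicate 1 and 175 in replicate 2, at a summit shared with uba-2, a subunit gene of the SUMO-activating enzyme. Another thresholded summit, not shared, lay 19 bp upstream of the other vps-25 start. It had 194 pooled, 132 in replicate 1 and 54.5 in replicate 2. The vps-36 summit had 153 pooled, 89.0 in replicate 1 and 52.4 in replicate 2. The third ESCRT-II gene, vps-22, had 19.3 in the pooled list, near a start inside the gene. A thresholded summit of 640 lay 619 bp upstream of its outermost start.

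HOPS and CORVET had the lowest share of the complexes, 2 of 8 genes (25%, interval 3.19 to 65.1%), against 16.5% of all protein-coding genes. The interval covers the share of all genes and overlaps that of the ESCRT genes, and the difference between the complexes was not tested. The unbound vps-8, vps-11, vps-16 and vps-41 began at most 150 bp after a same-strand gene, and 10.1% of all genes placed this way were bound. Both bound genes encode the Sec1/Munc18 subunits that guide membrane fusion. The HOPS form, vps-33.1, had 719 pooled, 478 in replicate 1 and 236 in replicate 2, at a summit 181 bp upstream and 407 bp from the start of sdz-1. The CORVET form, vps-33.2, had 219.5 pooled, 117 in replicate 1 and 94.3 in replicate 2, at a summit in an intron of the neighbouring autophagy gene epg-5. The proteins share 20.6% of aligned residues. Among the unbound, the HOPS subunit gene vps-39 had 66.4 pooled, the shared core gene vps-16 had 45.4 and the CORVET gene vps-8 had 42.6. Those were the highest unbound values of all members, while vha-20, vps-15 and vha-11 lay just inside the threshold at 76.6, 78.1 and 80.3. At vps-39 the nearest thresholded summit lay 523 bp upstream, just outside the window, with a signal of 161 and rank 2371. The core gene vps-11 had 13.0 in replicate 2 alone, and the HOPS gene vps-41 had no summit in any list.

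The core subunit gene vps-18 was listed differently from all other members. It had a summit 149 bp upstream with a signal of 60.9 in replicate 1, rank 3197, and one 123 bp upstream with 48.02 in replicate 2, rank 4337. Both ranks were within the 5501 strongest regions, the length of the thresholded list. The pooled list had no region there, its nearest summits lying 3783 bp upstream and 6980 bp downstream of the start. Of all protein-coding genes 71 (0.355%) showed this pattern, a high-ranking summit in each replicate list and none in the pooled list. Of the 3728 strongest regions of replicate 1 that overlapped one of the strongest of replicate 2, 132 (3.54%) overlapped no pooled region. The cause was not tested.

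Retromer had 2 of 3 genes bound, against 16.5% of all protein-coding genes. Both bound genes were below the median thresholded signal of 139.9. At vps-35 the signals were 130 pooled, 70.3 in replicate 1 and 62.6 in replicate 2, and at vps-26 they were 96.4 pooled, 55.0 in replicate 1 and 46.3 in replicate 2. The vps-26 summit lay in its coding sequence, 41 bp downstream of the nearest start. The third retromer gene, vps-29, had no summit in any list. GARP and EARP had 3 of 5 bound, against the same 16.5% of all protein-coding genes. The vps-51 gene, for a subunit both complexes share, had the highest signal of all members, with 859 pooled, 505 in replicate 1 and 342 in replicate 2. Its summit at 5807546 on chromosome I lay 255 bp upstream of vps-51 and 163 bp from the start of lin-35, the worm retinoblastoma gene, on the other strand. The EARP gene vps-50 had 186 pooled, 90.6 in replicate 1 and 88.5 in replicate 2, at a summit 459 bp from the start of cey-4, a Y-box protein gene.

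The shared subunit gene vps-52 had 106 pooled, 23.2 in replicate 1 and 70.9 in replicate 2, with ranks of 10114 and 2860, and ranked higher in replicate 2. The shared subunit gene vps-53 and the GARP gene vps-54 were unbound, with 29.5 and 19.9 in the pooled list. Both of these pooled summits lay near a start inside the gene, not the outermost one. In the kinase complex that makes phosphatidylinositol 3-phosphate on endosomes, the regulatory gene vps-15 had 78.1 pooled, 13.6 in replicate 1 and 37.04 in replicate 2. The kinase gene vps-34 had no summit in any list. The fusion regulator gene vps-45 had 292 pooled, 168 in replicate 1 and 135 in replicate 2, 19 bp upstream. At vps-13, a lipid transfer protein gene, a region of 23.3 in replicate 2 was the whole record. RefSeq gives vps symbols to 2 more genes, which Ensembl lists as C25H3.11 and C17E4.6. The first, vps-13D, was bound at 186, and the second, vps-72, was bound at 663 and encodes a chromatin factor rather than a sorting protein.

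**Figure D3:**
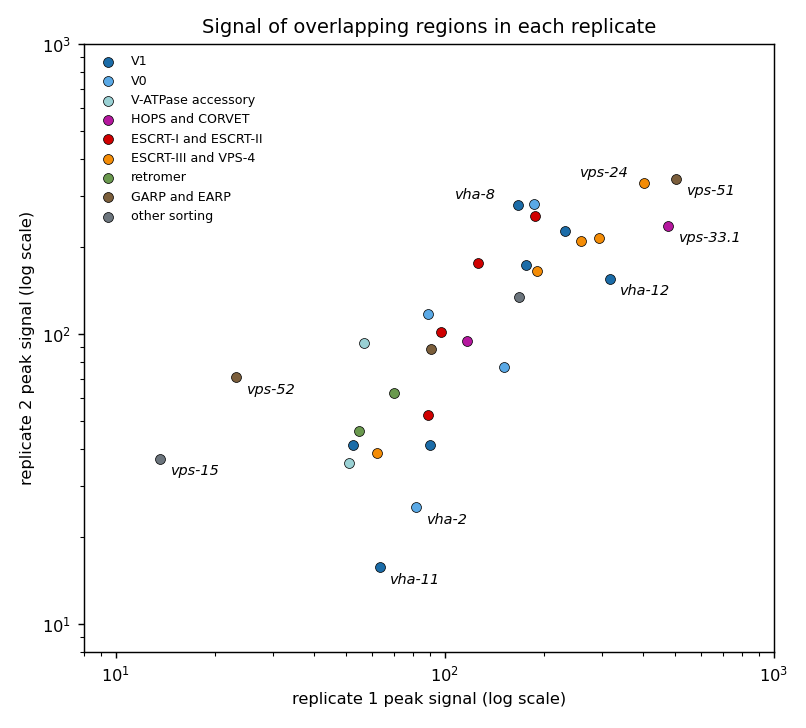
Signal of the regions that overlap the highest thresholded peak of each of the 31 bound members, replicate 1 on the x axis and replicate 2 on the y axis, both on log scales and coloured by complex. High members such as vps-51 and vps-24 are high in both, while vha-11 and vha-2 fall low in replicate 2 and vps-52 and vps-15 low in replicate 1.

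All 31 bound members had a region in each replicate that overlapped the thresholded peak. The summits of the replicates lay a median of 9 bp apart and at most 47 bp, in vps-36. Across these 31 peaks the signals of the replicates had a Spearman correlation of 0.853, given as a description because the peaks share the same libraries and were chosen in part from both. For 10 members the ranks in the replicates differed more than 2-fold, and 19 members ranked higher in replicate 1. With the 5501 strongest regions of each replicate, 30 members were bound in replicate 1, against 16.1% of all genes, and 27 in replicate 2, against 17% of all genes. In both replicates 26 members were bound, against 13.5% of all genes. These were 25 of the 31 bound members and vps-18. The other 6 bound members were vha-2, vha-11, vha-20, vps-2, vps-15 and vps-52, each with a thresholded signal of at most 131. Where a member was missing from a list, a lower depth of that library cannot be told apart from less signal.

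The 20 unbound members fell into 3 kinds. In the full pooled list 11 of them had a summit below the threshold, with signals from 19.3 to 66.4. Those were 11 of 51 members, against 17.4% of all genes. With the bound members, 42 of 51 had some pooled summit, against 34% of all genes. Another 5 members had a region in a replicate list alone, namely vha-5, vha-13, vps-11, vps-13 and vps-18. Of all genes 34% had a pooled summit and 54.8% had no summit in any list, and the remaining genes were of this kind. The 5 members are given as names only. No list held a summit at vha-7, vps-29, vps-34 and vps-41, 4 of 51 members, against 54.8% of all genes. The pooled list holds 30000 regions, most of them weaker than the threshold, so a summit there is no call of binding by itself. With pooled regions of −log10 q of at least 2 alone, 38 members had a summit, against 27.6% of all genes. In the full list of replicate 1, 41 members had a summit, against 35.6% of all genes, and in that of replicate 2, 42 members, against 35.8% of all genes.

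**Figure D4:**
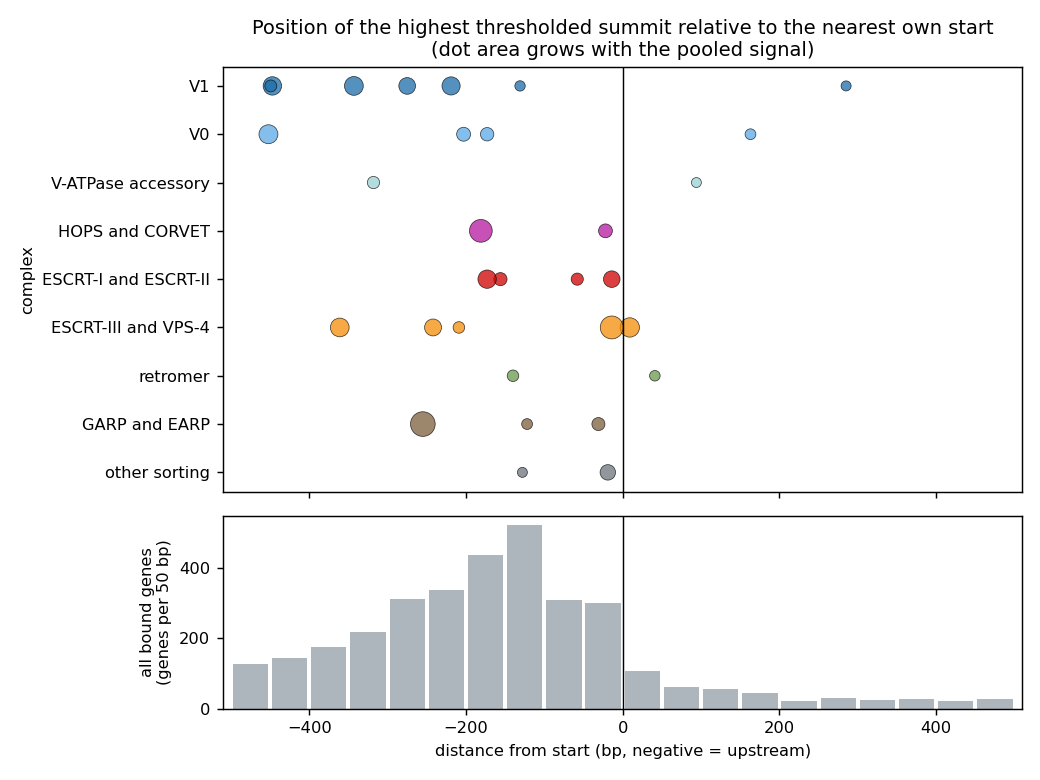
Distance in bp of the highest thresholded summit from the nearest own start for the 31 bound members by complex (upper part, dot area growing with the pooled signal) and for all bound genes per 50 bp (lower part); negative values are upstream. Of the members 26 lie upstream, and V-ATPase summits reach farther from the start than most vps summits.

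Summits lay mainly upstream and between genes. In 26 of the 31 bound members (83.9%) the highest summit was upstream of the nearest own start, against 87.1% of all bound genes. The median position was 156 bp upstream in bound members and 159 bp upstream in all bound genes. The vha summits lay farther out than the vps summits, with medians of 219 bp and 125 bp upstream. More than 250 bp upstream lay 6 of 13 vha summits and 2 of 18 vps summits, against 29.5% of all bound genes. A window of 250 bp kept 22 bound members, 6 vha and 16 vps genes, against 11.3% of all genes. By annotation 24 summits of members were intergenic (77.4%, against 70.4% for all bound genes), 3 were in introns, 3 in coding exons and 1 in a 5′ UTR. The 3 coding summits, at vha-2, vha-20 and vps-26, all had signals of at most 104.

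A neighbour often shared the summit. In 10 of the 31 bound members (32.3%) the highest summit was also within 500 bp of the start of another gene, against 38.3% of all bound genes. At vha-4, vha-8, vps-51 and vha-1 the neighbour's start was the nearer one. The vha-8 summit, for instance, lay 447 bp from vha-8 and 139 bp from C17H12.2. The lists cannot say which of 2 such genes a summit belongs to. With shared summits left out, 22 members remained bound, among them vps-25 by its other summit, against 10.4% of all genes.

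The share of bound members varied with the gene upstream, and these differences were not tested. Worm genes that follow each other closely on the same strand are often transcribed together as operons, from a promoter before the first gene, although the annotation used here does not mark operons. Of the members 15 were head-to-head, with a start on the other strand within 1000 bp upstream, and 11 of these were bound, against 38.5% of all head-to-head genes. Another 20 began within 1000 bp after the end of a gene on the same strand, and 10 were bound, against 13.1% of all such genes. The other 16 had neither kind of neighbour, and 10 were bound, against 11.2% of all such genes.

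**Figure D5:**
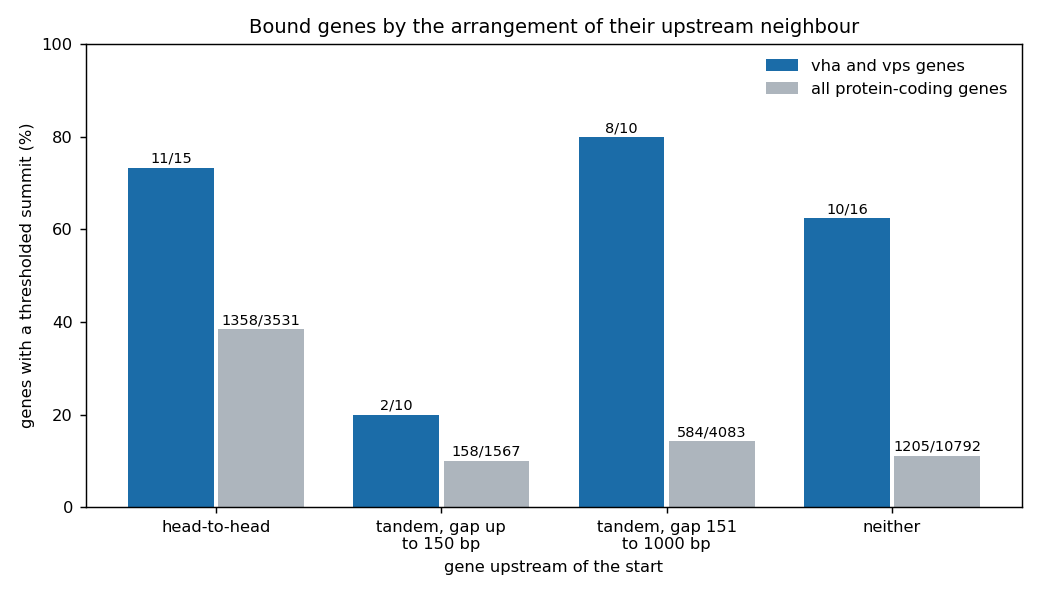
Share of genes with a thresholded summit, in percent, by the gene upstream, for the 51 members (left bars) and all protein-coding genes (right bars); labels give bound genes over all genes of the class. Members up to 150 bp after a same-strand gene are bound in 2 of 10 cases, those with a longer gap in 8 of 10.

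A gap of 150 bp, chosen after the values were seen, was used to split the tandem members. Of the 10 members that began at most 150 bp after a same-strand gene, 2 were bound, against 10.1% of all such genes. With a gap of more than 150 and up to 1000 bp, 8 of 10 were bound, against 14.3% of all such genes. The members with the short gap were vha-10, vha-20, vps-8, vps-11, vps-16, vps-29, vps-34, vps-41, vps-53 and vps-54, with gaps from 89 to 134 bp. The 8 unbound ones were all vps genes. In 7 of the 10 runs the first gene of the run had a thresholded summit at its own start, against 46.2% of all genes placed this way. For vps-16 that gene was txdc-9, with a signal of 417, and 1061 bp separate the starts of txdc-9 and vps-16. For vps-8 it was tag-335 with 412, for vps-54 it was erh-1 with 346, and for vha-20 it was sym-4 with 312. For vps-41 the first gene, Y34B4A.2, had 148, for vps-29 the gene ZK1128.1 had 127, and for vps-53 the gene gcc-2 had 80.1. No thresholded summit was found at the first gene before vps-11, vps-34 and vha-10, that is at set-14, B0025.4 and trpp-8. Each of these, like Y34B4A.2, itself followed a same-strand gene within 1000 bp, so which gene counts as first depends on the 150 bp limit. Among the 41 members outside these runs, 29 were bound, against 3147 of 18406 of all such genes.

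Tandem pairs of members were present as well. The start of vha-2 lay 910 bp after that of vha-1 on the same strand, with a gap of 400 bp between the genes, and the highest signal was 104 at vha-2, against 476 at vha-1. The start of vha-11 lay 1378 bp after that of vha-3, with a gap of 892 bp, and vha-11 had 80.3 while vha-3 was unbound. Members with 1 annotated start were bound in 25 of 35 cases, against 13.3% of all genes with 1 start. Members with several starts were bound in 6 of 16 cases, against 25.7% of all genes with several starts. The order of these shares in members is the reverse of that in all genes, a description that was not tested. It overlaps with the arrangement above. The several-start members vps-8, vps-29, vps-34, vps-41, vps-53 and vps-54 are also unbound members with the short gap.

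Many genes that act beside these members were bound as well. Of 31 other lysosome and endosome genes found in the annotation, 16 had a thresholded summit (51.6%, interval 33.06 to 69.8%), against 16.5% of all protein-coding genes. The highest was lmtr-3, a Ragulator subunit gene of the lysosome surface, with 1247 at a summit shared with atp-5. It was followed by rbg-3 with 637 at a summit shared with rps-0. Next were ccz-1, of the complex that activates RAB-7, with 436 at a summit shared with tag-65, and epg-8, a partner of the VPS-34 kinase, with 416. The ppk-3 gene, for the kinase that turns phosphatidylinositol 3-phosphate into its bisphosphate, had 367, and snx-1, for a retromer-associated sorting nexin, had 303. The lysosomal regulator hlh-30, the worm TFEB, had 82.9 at a summit 352 bp downstream of its start, a value chosen for mention after it was seen. The 15 others, such as rab-5, rab-7, tsg-101 and bec-1, had no thresholded summit within 500 bp.

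Motifs of lysosomal and intestinal genes were infrequent at these starts, as they were at the starts of all genes, and the differences were not tested. CACGTG, the E-box inside the CLEAR element that TFEB recognises, was found in the 300 bases around the start of 1 of 51 members, vps-52, against 5.83% of all genes. That window runs from 250 bases before the outermost start to 50 after it, both strands were searched, and the motif reads the same on both. GATAAG, a site of the GATA factors of the intestine, was found in 6 members (11.8%), against 16.7% of all genes. GAGAGA was found in 14 members (27.5%), against 21.8% of all genes. Of the 14, 10 were bound, against 60.8% of all members. Within 100 bases of the highest summit, GAGAGA was found in 10 of 31 bound members (32.3%), against 37.8% of all thresholded summits. In the same windows CACGTG was found at 1 of the 31, vha-11, against 5.94% of all thresholded summits. GATAAG was found at 2 of the 31, vps-2 and vps-50, against 11.8% of all thresholded summits. The median G and C content of these windows was 41.8%, against 42.8% for all thresholded summits. A match is a run of letters, not a shown site.

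Members lay on all 6 nuclear chromosomes, and bound ones too. On X, where 13.5% of all genes were bound, 5 of 6 members were bound, all but vps-41. On chromosome IV 4 of 9 members were bound, against 15.1% of all its genes, and on V 3 of 7, against 10.3%. On II 7 of 11 were bound, against 15.9%, on III 5 of 9, against 26.4%, and on I 7 of 9, against 23.7%. The shares of all genes differ between chromosomes, and the members' counts per chromosome are small.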

How the data were processed

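Peaks were scored on the ce11 lists, whose coordinates fall inside the WBcel235 genome; the ce10 lists were not used here. Per the submitters' file lists, the authors deposited an unthresholded list per replicate, one from the pooled alignments, and one thresholded by irreproducible discovery rate, all called against a control alignment. For the aligner, the peak caller and the cut-off, no name or value is given in the sources used here. The deposited signal column holds 1 height per peak, used for ranks and description within a list, and the deposited −log10 q column served a relaxed list. The lists hold no counts, so depth is unknown.

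A summit (column 2 plus column 10 plus 1) was assigned to each gene with a protein-coding transcript start within 500 bp (Ensembl release 115). Shares have exact Clopper-Pearson 95% intervals (SciPy 1.17.1). Replicate lists were limited to their 5501 strongest regions where stated. Proteins were translated from the annotation and aligned globally with BLOSUM62 (Biopython 1.88). The assignment was checked on simulated summits. The members and gene lists were chosen with earlier results of these data known. All members are named; of the other lysosome and endosome genes, the 6 of highest signal are named by rule, and unc-32, hlh-30 and 4 unbound genes were named after their values were seen. No test between conditions was possible, and no set test was made.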

Additional observations from a re-analysis of the deposited data

How the results depend on the processing

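The count of bound members kept within 1.5 times of 31 under all alternatives run. It was 22 within 250 bp (11.3% of all genes), 35 within 1000 bp (20.6%), 22 with the 2750 strongest thresholded peaks (11.2%), and 38 with the pooled regions of −log10 q of at least 2 (27.6%). It was 27 with each summit given to its nearest start (13.5%), 31 with the outermost start alone (15.4%) and 33 with any base of the peak (17.3%). With 1 replicate left out it ran from 27 to 30. The vha count fell to 6 of 20 within 250 bp, against 13 in the wider window. The median percentile of bound members, 52.6, moved to 49.2 within 250 bp, to 56.4 within 1000 bp and to 64.7 in the relaxed list. In the strongest regions of a single replicate it was 58.2 for replicate 1 and 62.8 for replicate 2. Chosen after the data were seen, all annotated transcripts gave 31 (16.6%), adding genes found in both replicates gave 32 with vps-18 (17.1%), and RefSeq symbols gave 33 of 53 (16.5%). No paired analysis was possible because there is 1 group. Depth is unknown, so a missing summit can reflect shallow sequencing.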
